A study of Homo sapiens with 12 samples.

Results

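The actin and SRF contractile genes are 10 genes picked by name from the 26485 genes in the count files. They are SRF (serum response factor), the actins ACTB, ACTG1, ACTC1 and ACTA2, and 5 genes of actin filaments and their attachment, TPM1, VCL, MYL9, TAGLN and CNN1. All 10 were found and all 10 passed the filter on low counts, which left 14865 genes. The names were chosen with counts of these libraries in view, so the values of the 10 genes are given as a description, with no p-value, and calls by the rule for all genes are only counted. The lists of related genes used further on were also chosen with earlier results of these data known. Their counts, medians and p-values therefore describe these libraries and are no independent test. Apart from SRF partners and actin isoforms, genes named from these lists by rule had first to pass 2-fold and an adjusted p under 0.05 against control.

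SRF is a transcription factor that binds the CArG box, a short element of CC, a run of A and T, and GG, in front of many actin and contractile genes. One class of its partners, the myocardin-related factors, is held in the cytoplasm by free actin monomers and enters the nucleus when monomers are used up by filament growth. The other class, the ternary complex factors ELK1, ELK3 and ELK4, is phosphorylated by ERK and serves immediate early genes such as FOS and EGR1.

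RNA was sequenced from OVCAR8, an established line of human ovarian cancer cells. Control cells received vehicle for 7 h, the EC359 group 150 nM EC359 (an inhibitor of the LIF receptor), the trametinib group 100 nM trametinib (an inhibitor of the kinase MEK, which activates ERK), and the combination group both agents at these doses. Each of the 4 groups holds 3 libraries of polyadenylated RNA, with 24790392 to 32467283 counted reads per library. Nothing says that the libraries come from separate cultures, so p-values measure only the spread between these libraries, which may be technical.

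Levels are CPM (counts of a gene set to a common library size after TMM scaling), and a change is the log2 fold change ± SE of edgeR's quasi-likelihood model. Comparisons against control share the same 3 control libraries. In bulk RNA, fewer cells expressing a gene and less RNA per cell cannot be told apart. Among 10 epithelial markers, 7 reached 1 CPM in some group, and their summed level lay between 3744 and 4248 CPM in all 12 libraries, with KRT19, MUC16 and CDH1 below 1 CPM. Leukocyte and endothelial markers reached 1 CPM in no group (0 of 3 in each list).

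CArG boxes, the elements bound by SRF, were searched near the start sites of these genes. RefSeq start-site windows (table build GRCh38.p14), which reach from 250 bases before to 50 bases after a start, were given for 7 of the 10 genes, in 11 windows. A CArG box was searched as CC, 6 bases of A or T, and GG, a pattern that is its own reverse complement. Boxes with other letters or outside the windows were not searched. It stood in 3 of these 11 windows, 1 each of ACTC1, ACTG1 and SRF, and in 454 of 35116 windows, or 1.29%, in the whole table. The stretches below hold the boxes of these 3 genes and, for comparison, of FILIP1L, a listed SRF target described further on, each written 5′ to 3′ on the strand of its gene with the box in capitals.
ACTC1: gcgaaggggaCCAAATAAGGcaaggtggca
ACTG1: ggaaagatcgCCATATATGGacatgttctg
SRF: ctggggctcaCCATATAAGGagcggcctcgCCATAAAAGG
FILIP1L: acgcggagcgCCTTATAAGGcagaacagtg
The hg38 positions are chr15:34795639-34795668 on the minus strand for ACTC1, chr17:81512874-81512903 on the minus strand for ACTG1, chr6:43171229-43171268 on the plus strand for SRF and chr3:99876214-99876243 on the minus strand for FILIP1L. The box begins 109 bases upstream of the RefSeq start in ACTC1, 94 bases in ACTG1 and 60 bases in FILIP1L. SRF has one box 30 bases and another 10 bases upstream of its own start. In the authors' annotation ACTC1 starts earlier, and its box lies inside the first exon there, which spans 34795506 to 34795726. Other named genes with a box were ACTA1, ACTG2, EGR1 and RND3, whereas NEXN, another listed SRF target, had none in its window. A match is a description of letters, and binding was not measured.

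**Figure D1:**
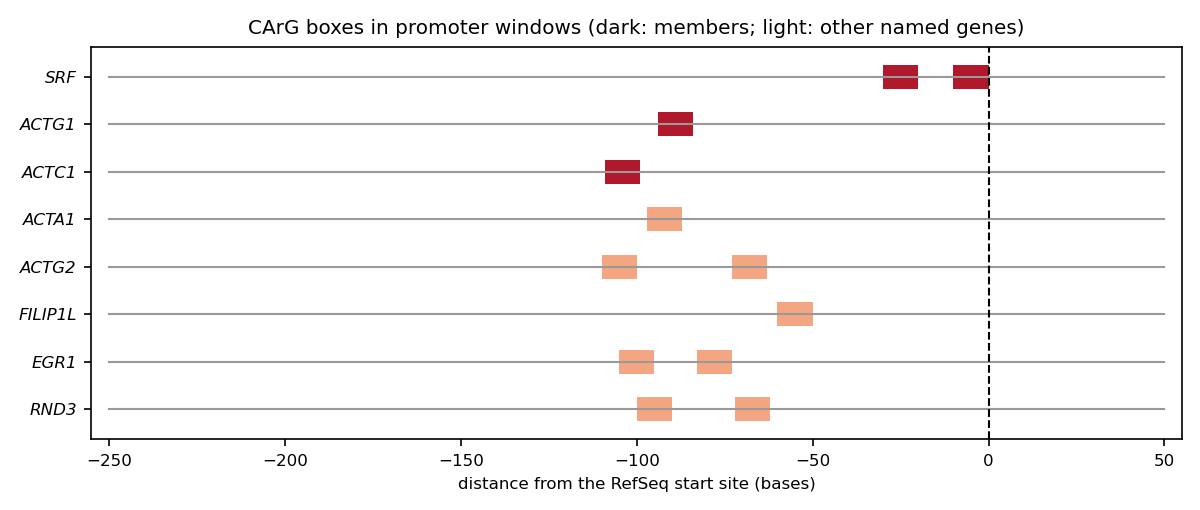
Positions of CArG boxes (filled blocks) in the 300-base windows around RefSeq start sites, as distance from the start in bases, for the 3 members with a box (dark) and for 5 other named genes (light). The boxes of ACTC1 and ACTG1 begin 109 and 94 bases upstream, and those of SRF lie within 30 bases of its start.

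SRF itself, the regulator of the group, was lower in both groups that received EC359. It stood at 58.0, 59.7 and 59.4 CPM in the control libraries, 44.4, 43.4 and 43.4 CPM with EC359, 61.0, 61.0 and 64.8 CPM with trametinib, and 45.9, 45.4 and 47.6 CPM in the combination group. All 6 libraries with EC359 lay below all 6 without it. The change against control was -0.43 ± 0.04 for EC359, 0.08 ± 0.04 for trametinib and -0.35 ± 0.04 for the combination. Against the single agents, SRF in the combination group differed by -0.43 ± 0.04 from trametinib and by 0.08 ± 0.04 from EC359.

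The cytoplasmic actins, which build the filaments of nearly every cell, followed the same split in ACTB and a milder one in ACTG1. ACTB stood at 7483, 7626 and 7775 CPM in control, 5008, 4696 and 4837 CPM with EC359, 7768, 8060 and 7816 CPM with trametinib, and 4825, 4627 and 4809 CPM in the combination group. EC359 and the combination overlapped at the low level, and control and trametinib overlapped at the high level. ACTB was 1.57-fold lower with EC359 (-0.65 ± 0.02) and 1.60-fold lower in the combination group (-0.68 ± 0.02), and it differed from control by 0.05 ± 0.02 with trametinib.

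ACTG1 stood at 3733, 3783 and 3736 CPM in control, 2910, 2800 and 2827 CPM with EC359, 3816, 3906 and 3844 CPM with trametinib, and 3297, 3314 and 3416 CPM in the combination group. Its 4 groups did not overlap, and the combination lay between EC359 and control. The change was -0.40 ± 0.02 with EC359 and -0.17 ± 0.02 in the combination group, which was 0.23 ± 0.02 above EC359 alone. Counts of both genes include fractions in all 12 libraries, which come from reads with several placements or overlapping genes, and these sources were not separated. Reads shared between near-identical actin copies may make the levels of ACTB and ACTG1 uncertain. The 19 rows of actin copies (ACTG1 pseudogenes, the POTE family and ACTBL2) were low beside them, with at most 3.19 CPM for ACTG1P20 in any library.

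ACTC1, the actin of heart muscle, had the largest positive change of the 10 genes with trametinib and with the combination, and the opposite direction with EC359 alone. Its libraries held 8.93, 8.88 and 8.74 CPM in control, 7.31, 7.02 and 5.44 CPM with EC359, 27.7, 30.5 and 27.7 CPM with trametinib, and 40.8, 39.2 and 41.5 CPM in the combination group. The 4 groups did not overlap, in the order EC359, control, trametinib and combination. ACTC1 was 3.23-fold higher with trametinib (1.69 ± 0.07) and 4.58-fold higher in the combination group (2.19 ± 0.07). With EC359 it was 1.34-fold lower (-0.42 ± 0.08), whereas EC359 added to trametinib went with a level 1.41-fold above trametinib alone (0.50 ± 0.06). The combination lay 6.14-fold above EC359 alone (2.62 ± 0.07).

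Few markers of striated muscle were present beside ACTC1. Of 9 such markers 2 reached 1 CPM in some group, and MYH6, MYOD1 and MYOG had no count in any library. The summed level of the 9 ran from 3.77 to 4.25 CPM in control, from 9.02 to 10.8 CPM with EC359, from 4.44 to 4.71 CPM under trametinib and from 17.8 to 19.2 CPM in the combination group. Most of it was ACTN2, an actin crosslinker of the sarcomere, at 2.27, 8.27, 2.50 and 16.4 CPM (means in the same order), a gene named after its values were seen. ACTN2 was high where EC359 was present, also where ACTC1 was at its lowest, and the part of these markers in the ACTC1 level was not tested.

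ACTA2, the actin of vascular smooth muscle, was scarce. It stood at 1.36, 1.46 and 1.53 CPM in control, 1.61, 1.11 and 1.42 CPM with EC359, 1.06, 1.29 and 1.30 CPM with trametinib, and 0.878, 0.708 and 0.864 CPM in the combination group. Only the combination lay apart from the other 3 groups, with a change of -0.83 ± 0.25 against control, from a mean of 45.3 counts per control library and 21.3 in the combination. The muscle actins ACTA1 and ACTG2 were at most 0.335 CPM in any library and were removed by the filter on low counts.

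Divided by exon length, the actins differed by orders of magnitude. The 4 actins together reached 5995 ± 82.5 CPM per kb in control, 4029 ± 113 with EC359, 6190 ± 109 with trametinib and 4223 ± 76.3 in the combination group (SD, n = 3). ACTB made up 70.2% of this sum in control, 66.4% with EC359, 70.3% with trametinib and 62.1% in the combination group. ACTG1 supplied nearly all the rest, at 29.7%, 33.6%, 29.6% and 37.6%. ACTC1 rested at 0.0400% of the sum in control and 0.260% in the combination group, where the level of ACTB per length was still 239 ± 2.86 times that of ACTC1.

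**Figure D2:**
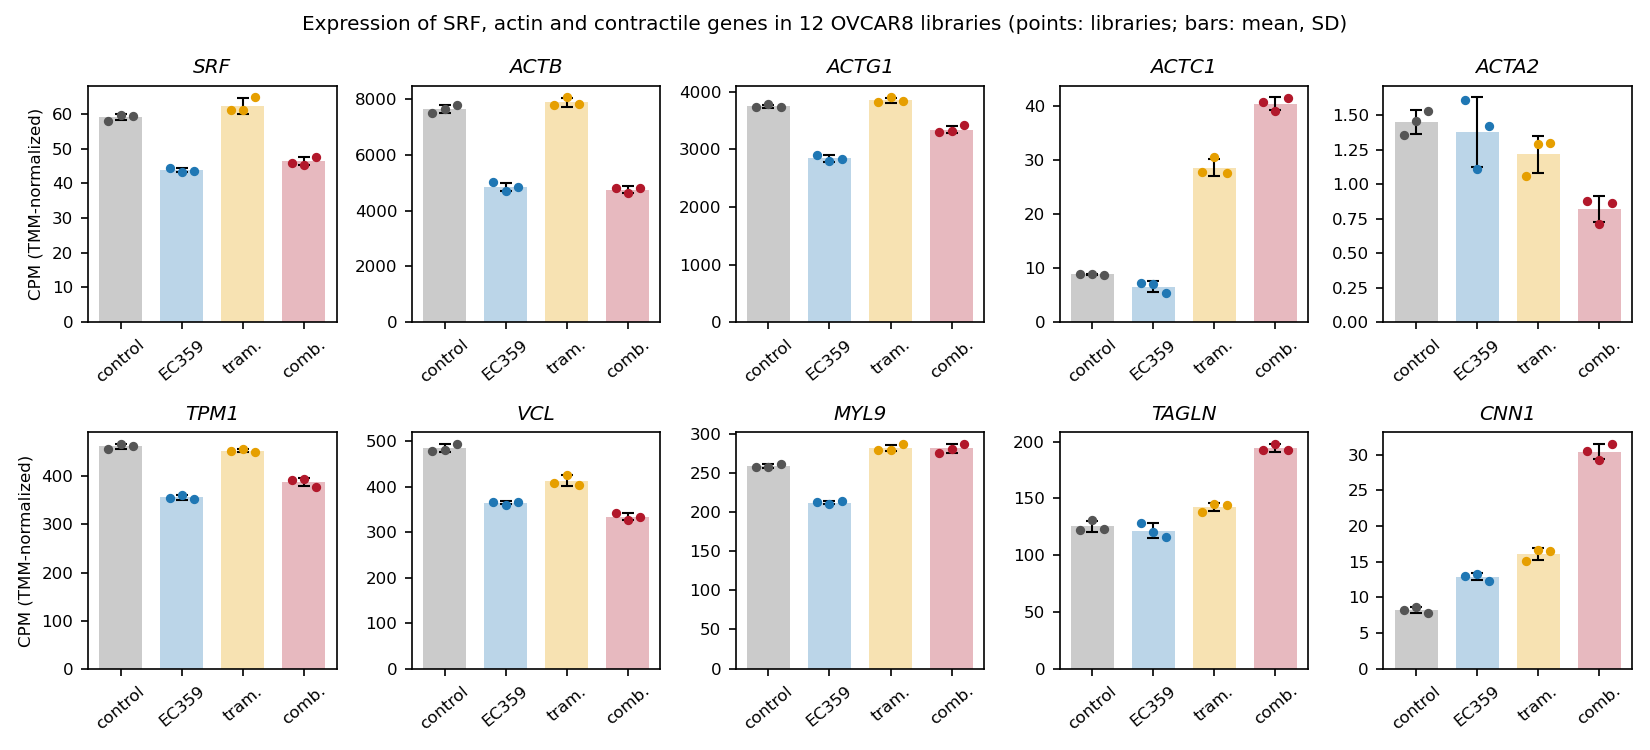
CPM after TMM scaling of each of the 10 genes in the 12 libraries (points), with bars for the mean and whiskers for the SD of 3 libraries, for control, EC359, trametinib (tram.) and the combination (comb.). SRF and ACTB were low in both EC359 groups, while ACTC1, TAGLN and CNN1 were highest in the combination group, at 40.5, 194 and 30.4 CPM.

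TPM1 (tropomyosin, which lies along the actin filament) and VCL (vinculin, which links filaments to adhesion sites) were lower wherever EC359 was present. Mean TPM1 was 463 ± 4.97 CPM in control, 356 ± 4.30 under EC359, 454 ± 3.37 under trametinib and 388 ± 8.74 in the combination group (SD, n = 3). The change of TPM1 was -0.38 ± 0.02 with EC359 and -0.25 ± 0.02 in the combination group, and the 4 groups did not overlap. Mean VCL was 485 ± 8.47 CPM in control, 365 ± 3.16 under EC359, 413 ± 12.1 under trametinib and 335 ± 8.07 in the combination group (SD, n = 3). VCL was lower than control with both single agents, with changes of -0.41 ± 0.02 for EC359 and -0.23 ± 0.02 for trametinib, and it was lowest in the combination group (-0.54 ± 0.02).

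MYL9, a regulatory light chain of nonmuscle and smooth muscle myosin, was low with EC359 alone but not in the combination group. Its libraries held 257, 257 and 261 CPM in control, 213, 210 and 213 CPM with EC359, 279, 280 and 286 CPM with trametinib, and 276, 280 and 287 CPM in the combination group. Trametinib and the combination overlapped, with a difference of -0.00 ± 0.02. The EC359 libraries lay below all others, with a change of -0.29 ± 0.02. The small difference of the combination from control, 0.12 ± 0.02, turned to -0.020 when libraries were scaled by total counts alone.

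TAGLN (transgelin) and CNN1 (calponin), actin-binding proteins of smooth muscle, were highest in the combination group. TAGLN stood at 122, 131 and 123 CPM in control, 129, 120 and 116 CPM with EC359, 138, 145 and 144 CPM with trametinib, and 193, 198 and 192 CPM in the combination group. EC359 and control overlapped, and both other groups lay above them. TAGLN differed from control by -0.05 ± 0.03 with EC359, 0.18 ± 0.03 with trametinib and 0.63 ± 0.03 in the combination group.

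CNN1 stood at 8.25, 8.69 and 7.74 CPM in control, 13.0, 13.3 and 12.3 CPM with EC359, 15.1, 16.7 and 16.4 CPM with trametinib, and 30.5, 29.3 and 31.5 CPM in the combination group. It was the one member higher than control in all 9 treated libraries with no overlap between any of the groups. CNN1 was 1.57-fold higher with EC359 (0.65 ± 0.07), 1.95-fold higher with trametinib (0.97 ± 0.07) and 3.70-fold higher in the combination group (1.89 ± 0.07). Smooth muscle markers did not reach these levels. Their sum over 5 genes was 1.58 to 3.02 CPM across all libraries, 1 of the 5 reached 1 CPM in some group, and MYH11, the myosin that defines the cell type, had no count. Of 8 fibroblast markers 2 reached 1 CPM, COL1A1 and PDGFRB, and the sum of the 8 was 429 to 450 CPM in control, 235 to 248 under EC359, 538 to 546 under trametinib and 341 to 361 in the combination group, while DCN was at 0. The part of these markers in the levels of TAGLN and CNN1 was not tested.

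**Figure D3:**
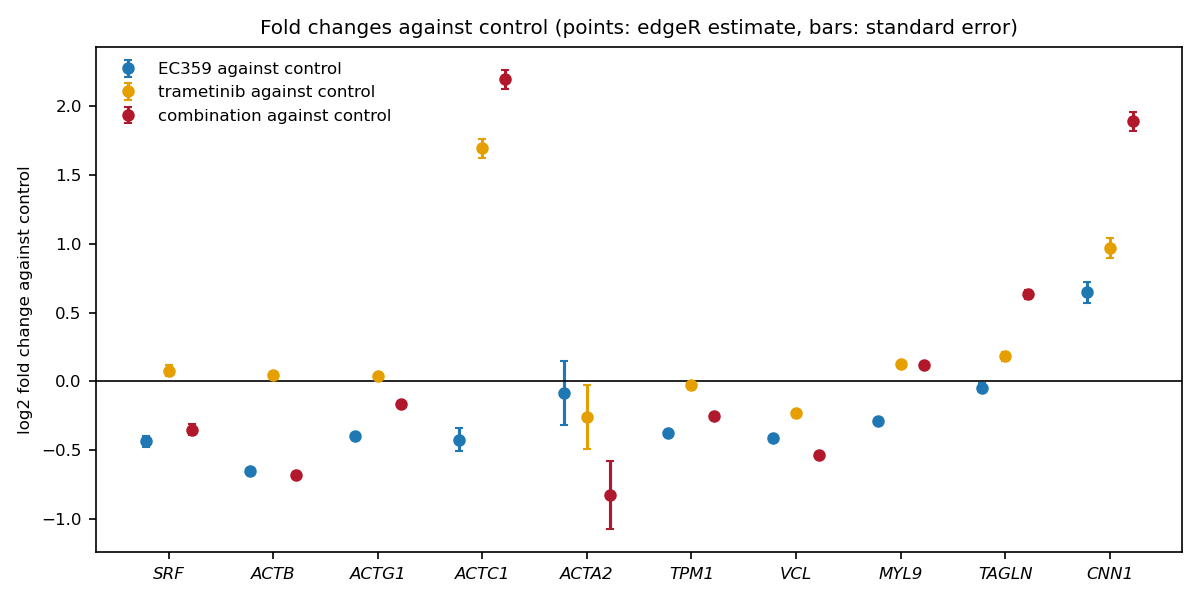
Log2 fold change against control of the 10 genes for EC359, trametinib and the combination (points), with bars for the SE of edgeR's estimate. ACTC1 and CNN1 reach 2.19 and 1.89 in the combination group, ACTB lies at -0.65 with EC359 and -0.68 in the combination group, and ACTA2 has the widest error.

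Counted by the rule used for all genes, a p under 0.05 from edgeR's quasi-likelihood test once adjusted after Benjamini-Hochberg, 1 of the 10 was higher and 7 were lower with EC359, where 30.8% of all tested genes were higher and 30.3% were lower. With trametinib 4 were higher and 1 was lower, against 13.0% and 15.2% of all genes. In the combination group 4 were higher and 6 lower, against 35.0% and 34.7%. Between these groups, the libraries lay apart in 1 member higher and 7 lower with EC359 (32.4% and 32.3% of all genes), in 6 higher and 3 lower with trametinib (19.7% and 20.4%), and in 4 higher and 6 lower in the combination group (36.0% and 35.8%). These counts describe genes picked with the values known, and nothing is read from them. The median change of the 10 was -0.39 with EC359, 0.06 with trametinib and -0.21 in the combination group, and the median of all tested genes was -0.01, 0.00 and -0.01. Scaled by total counts alone, the median of all tested genes moved to -0.15 for EC359, 0.03 for trametinib and -0.14 for the combination, and 31.8%, 58.4% and 36.0% of the called genes were higher, in place of 50.4%, 46.2% and 50.2%. Past 2-fold, trametinib counted ACTC1 alone (0.478% of all genes were higher by this rule), and the combination counted ACTC1 and CNN1 (7.27%).

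Between the treated groups, 6 of the 10 were higher and 2 lower in the combination than with EC359, where 24.1% and 25.2% of all genes were higher and lower. Past 2-fold these were ACTC1 and CNN1 (1.69% of all genes were higher by this rule), and the libraries lay apart in 7 members higher and 2 lower (26.8% and 27.0%). Compared to trametinib alone, 3 were higher (ACTC1, TAGLN and CNN1) and 6 were lower in the combination group, against 35.3% and 32.9%, and the same numbers had libraries apart, against 36.0% and 34.3%. The interaction, the combination's log2 change less the sum of the single agents' changes, was 0.92 ± 0.10 for ACTC1, 0.50 ± 0.04 for TAGLN, 0.28 ± 0.03 for MYL9 and 0.27 ± 0.10 for CNN1. It was 0.19 ± 0.03 for ACTG1, 0.15 ± 0.03 for TPM1 and 0.11 ± 0.03 for VCL. These 7 passed the rule upward and none passed it downward, against 14.4% and 15.9% of all genes. CNN1 lost this call under DESeq2 and with total counts only, and VCL with total counts only. SRF lay at 0.01 ± 0.06, ACTB at -0.07 ± 0.03 and ACTA2 at -0.49 ± 0.35. As above, the members' calls are counts of genes picked with the values known, and nothing is read from them.

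**Figure D4:**
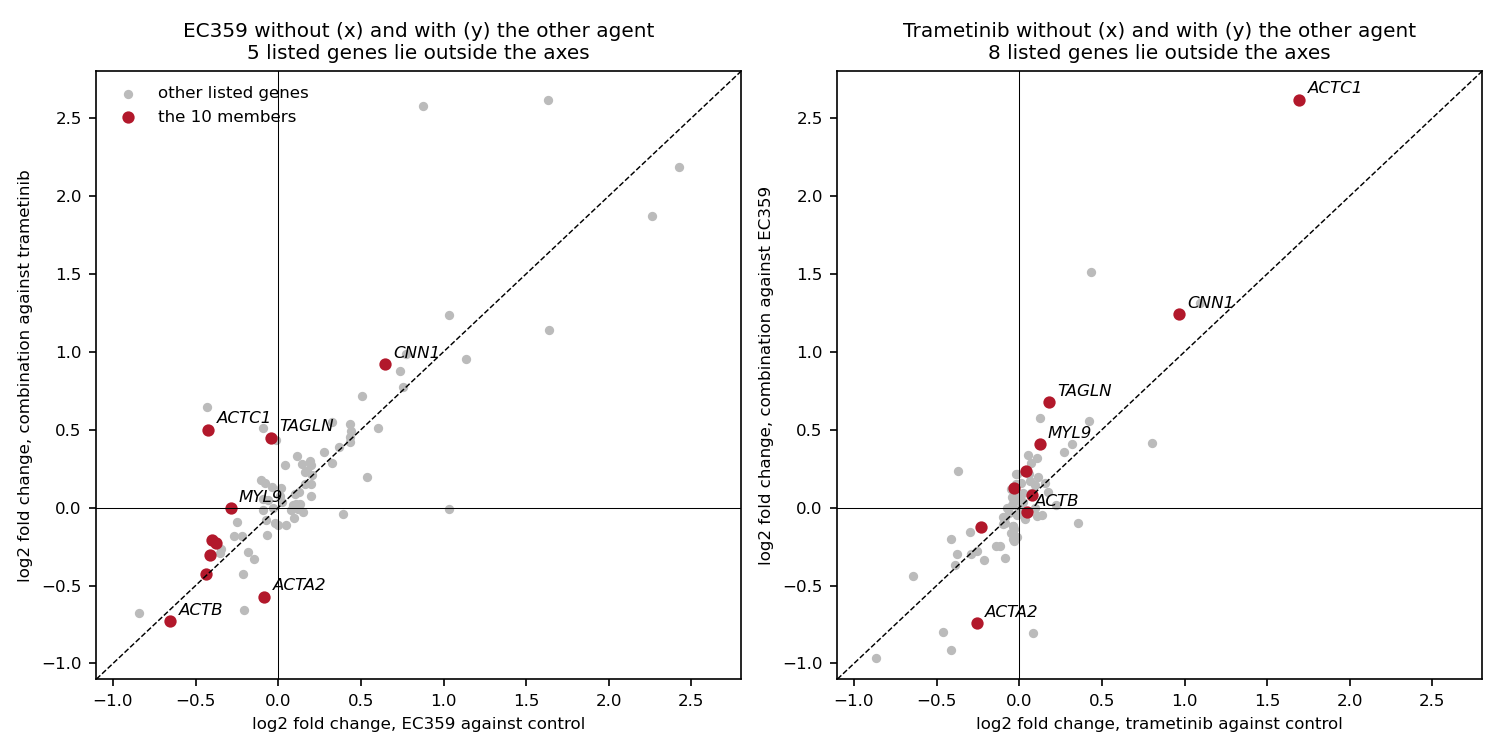
Log2 fold change of each agent without (x axis) and with (y axis) the other agent, for EC359 (left) and trametinib (right), for the 10 members (dark) and the 76 other listed genes (grey, 5 and 8 of them outside the axes). Points on the dashed line have the same change in both settings. The height above it is the interaction, the same in both panels, so the same 8 of the 10 members lie above it in each. They include SRF at 0.01 ± 0.06, the members were picked with these values known, and the median interaction of all tested genes was -0.01. ACTC1 lies at -0.42 and 0.50 for EC359 and at 1.69 and 2.62 for trametinib.

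Among themselves the 10 genes fell along different patterns over the 12 libraries, as described by Pearson's r of log2 CPM, where libraries of one group share their treatment. ACTB went with SRF (r = 0.976). ACTC1 went with TAGLN (r = 0.883), MYL9 (r = 0.849) and CNN1 (r = 0.821), and TAGLN with CNN1 (r = 0.908). ACTC1 and SRF had r = 0.164, and ACTC1 and ACTB had r = -0.01. ACTA2 ran against CNN1 (r = -0.858), with at most 52 ACTA2 counts in a library.

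Of 9396 genes with at least 10 mean CPM, those most like ACTC1 over the 12 libraries were PLEKHA7 (an adherens junction protein, r = 0.993), MFAP5 (r = 0.980), FSTL1 (r = 0.975), ANKRD52 (r = 0.974) and ITM2B (r = 0.973). Their changes were far smaller. PLEKHA7, the closest, had -0.09 with EC359, 0.38 with trametinib and 0.45 in the combination group. Those most like SRF were CDKN2C (an inhibitor of CDK4 and CDK6, r = 0.991), ZNF607, UBTF and TRAFD1 (r = 0.988 each) and B4GAT1 (r = 0.985). CDKN2C stood at 41.9 ± 1.31 CPM in control, 12.6 ± 0.678 under EC359, 56.1 ± 1.87 under trametinib and 15.5 ± 0.615 in the combination group (SD, n = 3).

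Among the partners of SRF, the genes for the myocardin-related factors moved apart. MKL1 (also called MRTFA) rose in all 3 treated groups, from 51.5 ± 1.39 CPM in control to 85.9 ± 3.35 with EC359 and 127 ± 2.67 in the combination group (SD, n = 3), and its trametinib libraries held 68.3, 71.3 and 67.4 CPM. In edgeR's quasi-likelihood test, adjusted over all genes after Benjamini-Hochberg, its change was 0.74 ± 0.04 (adjusted p = 3e-25), 0.42 ± 0.04 (adjusted p = 3.2e-14) and 1.30 ± 0.04 (adjusted p = 8e-38). MKL2 (MRTFB) fell with EC359 (-0.22 ± 0.05, edgeR adjusted p = 5.7e-05) and in the combination group (-0.20 ± 0.05, edgeR adjusted p = 0.00014) and rose with trametinib (0.22 ± 0.04, edgeR adjusted p = 4.3e-05). MYOCD, the muscle member of the family, was at most 0.0798 CPM and was not tested.

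Of the ternary complex factors, ELK3 had the clearest change, with 126 ± 2.27 CPM in control, 165 ± 2.33 with EC359, 51.6 ± 1.94 under trametinib and 50.3 ± 2.47 in the combination group (SD, n = 3). ELK3 rose with EC359 (0.39 ± 0.03, edgeR adjusted p = 7.2e-17) and fell 2.43-fold with trametinib (-1.28 ± 0.03, edgeR adjusted p = 3.1e-37) and 2.50-fold in the combination group (-1.32 ± 0.04, edgeR adjusted p = 2.9e-38). ELK1 rose with EC359 (0.43 ± 0.04, edgeR adjusted p = 3.1e-13) and in the combination group (0.37 ± 0.04, edgeR adjusted p = 3.1e-11). ELK4 rose with EC359 by 0.15 ± 0.05 (edgeR adjusted p = 0.011), a call that was lost when libraries were scaled by total counts alone, and was at -0.04 ± 0.05 in the combination group. Among the 5 partners tested, 4 rose and 1 fell with EC359, 2 rose and 1 fell with trametinib, and 2 rose and 2 fell in the combination group. Of all tested genes 30.8% rose and 30.3% fell with EC359, 13.0% and 15.2% with trametinib, and 35.0% and 34.7% in the combination group, so that the partners' count for the combination is near the share of all genes.

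The immediate early targets, which SRF serves with the ternary complex factors, moved in other directions than SRF and ACTB. All 9 listed genes rose at least 2-fold with EC359 by the edgeR rule, which 4.19% of all tested genes did, with a median change of 2.93. With trametinib none rose, 6 fell and the median was -0.57. In the combination group 8 rose, 1 fell and the median was 2.10. Of all tested genes 15.2% fell with trametinib and 35.0% rose in the combination group. EGR1, a zinc finger factor, stood at 6.90 ± 0.976 CPM in control, 207 ± 3.63 with EC359, 0.329 ± 0.144 under trametinib and 8.54 ± 1.01 in the combination group (SD, n = 3). FOS, a subunit of AP-1, stood at 1.92 ± 0.640 CPM in control, 57.3 ± 1.19 with EC359, 0.271 ± 0.137 under trametinib and 18.6 ± 0.639 in the combination group (SD, n = 3).

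Further immediate early genes rose with EC359 by 5.61 ± 0.09 (FOSB), 2.93 ± 0.04 (JUNB) and 2.42 ± 0.06 (NR4A1) on the log2 scale. EGR3, a listed gene named outside the rule, had no count in control. It was at least 52.0-fold higher with EC359 and at least 9.02-fold higher in the combination group, against a floor of 3 counts per library. Setting EGR3 at these bounds left the list medians as they stand.

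The other actin cytoskeleton and adhesion targets of SRF changed in both directions. Of 29 genes tested from a list of 31, 14 rose and 11 fell with EC359 (30.8% and 30.3% of all genes), with a median change of 0.08. With trametinib 8 rose and 9 fell (13.0% and 15.2% of all genes, list median -0.01), and in the combination group 15 rose and 9 fell (35.0% and 34.7% of all genes, list median 0.08). FILIP1L, whose box is printed above, rose from 15.8 ± 0.556 CPM in control to 19.7 ± 1.01 with EC359, 33.6 ± 0.952 under trametinib and 49.2 ± 2.11 in the combination group (SD, n = 3). Its change was 1.09 ± 0.06 with trametinib (edgeR adjusted p = 6.7e-24) and 1.64 ± 0.05 in the combination group (edgeR adjusted p = 1.3e-33). NEXN, a filament-binding protein of muscle and adhesion sites, had the order of groups seen in ACTC1, with 26.5 ± 1.95 CPM in control, 19.6 ± 0.364 with EC359, 35.7 ± 0.909 under trametinib and 55.8 ± 0.902 in the combination group (SD, n = 3). NEXN fell with EC359 (-0.43 ± 0.06, edgeR adjusted p = 1.1e-09) and rose in the combination group (1.08 ± 0.05, edgeR adjusted p = 4e-27), with an interaction of 1.07 ± 0.07 (edgeR adjusted p = 7.6e-18).

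Other genes of the actin cytoskeleton were named after their values were seen, so their changes are a description, with no p given. The paralogs of CNN1 and TPM1 among them did not move alike. CNN2, the calponin of nonmuscle cells, changed by -0.84 ± 0.03 with EC359, -0.72 ± 0.03 in the combination group and -0.05 ± 0.03 with trametinib. The calponin CNN3 changed by 0.04 ± 0.02 with EC359 and 0.26 ± 0.02 in the combination group. TPM2 changed by -0.08 ± 0.02 with EC359 and 0.14 ± 0.02 in the combination group. Scaling by total counts alone moved the median of all tested genes to -0.14 for the combination, and the TPM2 change under it was not examined. The tropomyosin TPM4 changed by -0.25 ± 0.02 with EC359 and -0.03 ± 0.02 in the combination group. MYH9, the heavy chain of nonmuscle myosin, rose by 0.44 ± 0.02 with EC359 and 0.59 ± 0.02 in the combination group. CALD1, the actin-binding protein caldesmon, had -0.01 ± 0.03 with EC359 and a rise of 0.56 ± 0.03 in the combination group. FLNA rose by 0.28 ± 0.02 and 0.47 ± 0.02 in the same order. LIMA1 changed by -0.35 ± 0.02 and -0.30 ± 0.02, and CAV1 by -0.18 ± 0.03 and -0.43 ± 0.03.

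Of 7 genes of YAP, TEAD and targets shared with SRF, 6 rose with EC359 (30.8% of all genes), 1 rose and 5 fell with trametinib (13.0% and 15.2%), and 5 rose and 2 fell in the combination group (35.0% and 34.7%). ANKRD1, a muscle ankyrin repeat protein, stood at 269 ± 6.16 CPM in control, 495 ± 3.30 with EC359, 122 ± 3.43 under trametinib and 728 ± 6.64 in the combination group (SD, n = 3). CTGF, a secreted matrix protein, stood at 80.7 ± 2.47, 250 ± 6.58, 22.5 ± 0.859 and 138 ± 1.81 CPM in the same order (SD, n = 3). Unlike ACTC1 and CNN1, ANKRD1 and CTGF fell with trametinib, with changes of -1.14 ± 0.03 (edgeR adjusted p = 4.3e-41) and -1.84 ± 0.04 (edgeR adjusted p = 4.3e-42).

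**Figure D5:**
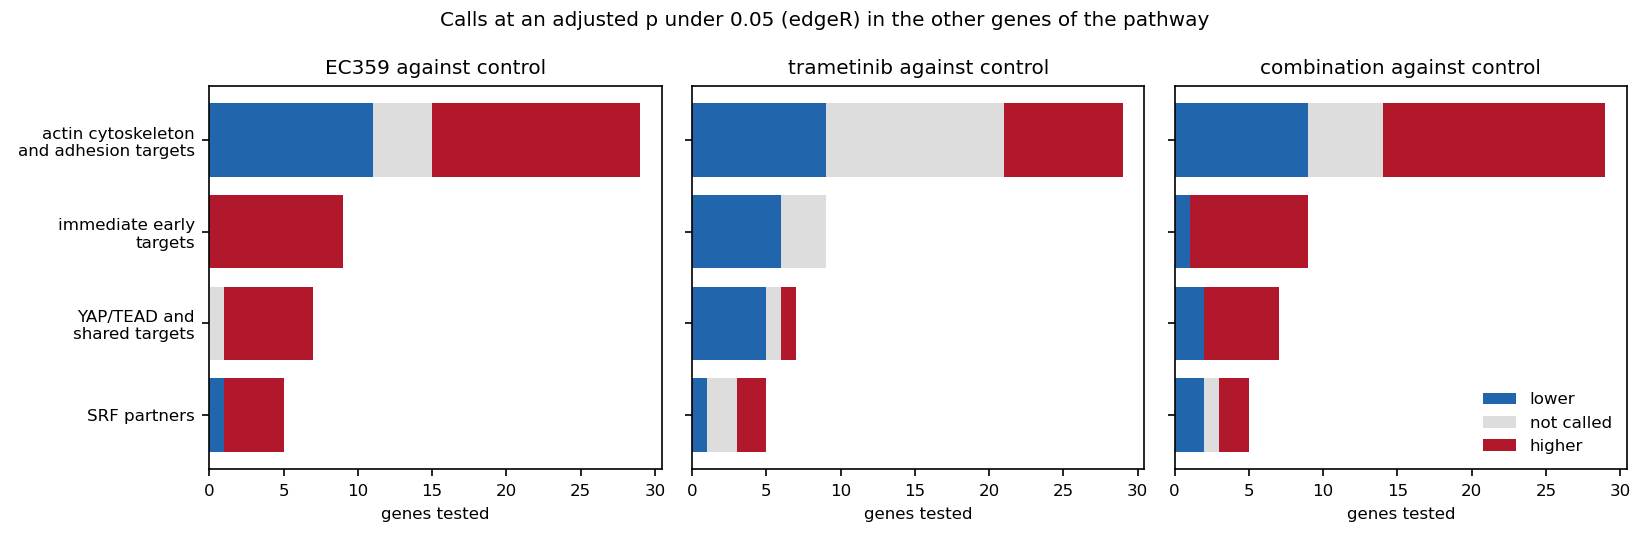
Number of tested genes (x axis) called higher (red), lower (blue) or neither (grey) by edgeR at an adjusted p under 0.05 in 4 lists of other pathway genes, for EC359, trametinib and the combination against control. All 9 immediate early targets are higher with EC359 and none with trametinib, and the 29 cytoskeleton targets are divided in each comparison.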

How the data were processed

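Polyadenylated RNA of OVCAR8 cells in 4 groups of 3 libraries was read from both ends for 100 bases. The deposited values are estimated counts (expected counts) per gene. Per the file headers, the authors ran featureCounts 1.5.0-p1 with a minimum mapping quality of 2, reverse strand and fractional sharing of reads with several placements or overlapping genes, on an hg38 annotation. HISAT2 and bcl2fastq are named in the submitters' processing notes, and their versions are not given in the sources used here. In each library 12.4% to 15.1% of genes held a fraction, which was rounded.

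Tests used edgeR 4.0.16 in R 4.3.3, with filterByExpr (minimum count 10, minimum total 15), TMM factors (0.947 to 1.06) and 1 robust quasi-likelihood fit to all 12 libraries, with p-values adjusted by Benjamini-Hochberg over 14865 genes. The biological coefficient of variation was 3.95%. The 10 members and the gene lists were chosen with earlier results of these data known. Named beside the members were all SRF partners, the other actin isoforms, up to 5 genes per list past 2-fold and an adjusted p under 0.05 against control and at least 10 CPM in 1 group, and the 5 genes most like ACTC1 and SRF. MYH9, CNN2, CNN3, CALD1, TPM2, TPM4, ACTN2, FLNA, LIMA1 and CAV1 were named after their values were seen. EGR3 was also named outside the rule. Calls counted over the members, all listed genes and all tested genes were recomputed, with the changes of members and genes named by rule. This was done with DESeq2 1.42.0, with edgeR on DESeq2's size factors or on total counts, and without a filter or with a stricter one. It was also done on the compared groups alone, with a replicate block and without each library. Counts of single lists, correlations, actin shares and changes of genes named after their values were seen were not recomputed 1 by 1. The tests were first tested on simulated counts with known changes. Sequences are from RefSeq. Some items, including 1 gene list, are not reported here.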

Additional observations from a re-analysis of the deposited data

Results flagged for a closer look

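The effect of EC359 on ACTC1 had opposite signs without and with trametinib, -0.42 and 0.50 on the log2 scale, and in both settings all 3 libraries with EC359 lay apart from the 3 without it. The effect of trametinib on TPM1 likewise had opposite signs, -0.029 without and 0.12 with EC359, with libraries apart in both. These differences equal the interactions of 0.92 for ACTC1 and 0.15 for TPM1 given above. As both genes were picked with these values known, they are a description and no p is given.

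In the other pathway genes, the interaction of the agents was positive and passed edgeR's quasi-likelihood test (p adjusted after Benjamini-Hochberg) in 6 of the genes named by rule. Of all tested genes 14.4% passed upward and 15.9% downward. Most of the genes named by rule were picked for large changes in these same libraries, and ELK1, ELK4 and EGR1 passed in neither direction. The interaction was 1.70 for ANKRD1 (adjusted p = 4.2e-42), 1.145 for FOS (adjusted p = 0.0066), 1.075 for NEXN (adjusted p = 7.6e-18) and 0.98 for CTGF (adjusted p = 3.2e-23). FILIP1L at 0.22 (adjusted p = 0.025) and MKL1 at 0.14 (adjusted p = 0.03) were close to the threshold by edgeR and lost the call under DESeq2 and with total counts only. For genes named after their values were seen, no p is given. Their interaction was 0.84 for ACTN2, 0.45 for CALD1, 0.24 for TPM2, 0.23 for CNN3, 0.17 for CNN2, 0.16 for TPM4 and 0.05 for MYH9. It was 0.08 for FLNA, 0.06 for LIMA1 and -0.10 for CAV1.

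By the same edgeR test, 7 of the genes named by rule passed downward, as did 15.9% of all tested genes. In these 7 the combination stayed below the sum of the single effects, and the interaction was negative. It was -0.89 for JUNB (adjusted p = 3e-20), -0.76 for FOSB (adjusted p = 0.0086), -0.43 for ELK3 (adjusted p = 4e-10) and -0.39 for RHOB (adjusted p = 4.9e-14). For NR4A1 it was -0.24 (adjusted p = 0.024), for MKL2 -0.21 (adjusted p = 0.011) and for RND3 -0.18 (adjusted p = 0.001). RHOB was still highest in the combination group, with a mean of 1181 CPM, against 888 with EC359, 324 with trametinib and 185 in control.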

How the results depend on the processing

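Over all alternatives, 320 of the recomputed counts of called genes stayed within 1.5 times the value given and 12 did not. Of the members' changes, 796 kept their direction and side of the threshold, 19 lost the call, 14 gained it and 1 reversed. The reversed change was that of MYL9 in the combination against control, at -0.020 with total counts only. That scaling also gave 28 pathway genes lower with EC359 in place of 17, 7 members higher with trametinib in place of 4, and 31 pathway genes lower in the combination against trametinib in place of 14, with 33.1% in place of 51.7% of all called genes higher and a median of all genes of -0.16. For the interaction it gave 1 member lower (ACTB) in place of 0, with 37.9% in place of 47.6% of called genes higher. DESeq2, its size factors within edgeR and no filter also gave 1 member lower. Leaving out 1 library, this count ranged from 0 to 1, being 1 without EC359 replicate 2, combination replicate 1 or control replicate 3. Members lower in the combination against EC359 ranged from 1 to 2, with ACTA2 lost without EC359 replicate 1 or combination replicate 2.

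Replicate numbers are shared by the groups, but deviations of same-numbered libraries correlated at only -0.067 to 0.030 over 18 pairs (other pairs, -0.084 to 0.096). These values show no shared effect of the number. They cannot tell whether same-numbered libraries were handled together, which the labels do not say. With a replicate block, calls over all genes went from 9077 to 9024 with EC359 and from 10353 to 10304 with the combination, and no count of members or listed genes moved by 1.5 times.

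Outside the 10 members, FOS and EGR1 held few reads with trametinib, with mean counts of 8.33 and 9.67 per library, and the FOS interaction rests partly on these. Among the members, depth limits ACTA2 most, at 19 to 52 counts per library. Its change against trametinib lost the call under DESeq2 and without any one of combination replicates 1, 2 and 3 and trametinib replicates 2 and 3 (-0.62 to -0.47). The interaction of CNN1 lost it without any one of control replicates 1 and 2, EC359 replicate 3, trametinib replicate 1 and combination replicate 3 (0.23 to 0.27), and that of VCL without trametinib replicate 3 (0.09). Reads shared between several placements or overlapping genes may leave ACTB and ACTG1 less certain than their counts imply. Fractions were also common in MYL9, TPM1 and VCL, whose values were whole in 4, 4 and 3 of the 12 libraries.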
